A study of Homo sapiens with 6 samples.

Results

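The aldo-keto reductase (AKR) genes described here are AKR1A1, AKR1B1, AKR1B10, AKR1C1, AKR1C2, AKR1C3, AKR1C4, AKR1D1, AKR7A2 and AKR7A3. They were chosen by name as the entries of the expression table that carry these symbols, and all 10 were found among its 26184 genes and loci. RNA sequencing compared 3 samples of Huh7 P with 3 samples of Huh7 LR. Huh7 P is the parental human hepatocellular carcinoma line Huh7, labelled wild type and untreated. Huh7 LR is the lenvatinib-resistant line raised from it, also labelled wild type, by lenvatinib increased from 1 to 20 μM over about 10 months, and kept in medium with 20 μM lenvatinib. Lenvatinib inhibits several receptor tyrosine kinases and is given for hepatocellular carcinoma. Huh7 LR is 1 derived line grown as a separate culture, so resistance, drug exposure and culture history cannot be told apart. Whether it was still in the medium at the RNA harvest itself is not stated. The samples of a line are described as independent, without naming separate derivations, so p-values measure only the spread between these samples, which may be technical.

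Aldo-keto reductases are NADPH-dependent enzymes that reduce aldehydes and ketones to alcohols. In the liver they take part in bile acid and steroid metabolism, in the handling of sugars, retinoids and prostaglandins, and in the removal of reactive aldehydes and of drugs with a carbonyl group. Several of them, AKR1B10 and the AKR1C genes among them, are known targets of NRF2, the transcription factor of the antioxidant response.

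Counts assigned to genes totalled 62738937 to 71427573 per Huh7 P library (median 66961548) and 63233655 to 70768720 per Huh7 LR library (median 67284160). Levels of a gene are given as CPM, counts divided by library size in megareads after scaling by edgeR's TMM factors, and between genes as the authors' FPKM, which also divides by transcript length. A gene with a count of 0 may still reach 3 counts, or 0.0418 to 0.0486 CPM depending on the library, by counting error only. Differences between the lines come from the quasi-likelihood test of edgeR, with Benjamini-Hochberg adjustment over the 17531 genes and loci with enough counts. A call (higher or lower) needs an adjusted p under 0.001 and more than 2-fold, while a gene counts as differing once its adjusted p is under 0.05.

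Of the 10 AKR genes, 9 had enough counts to test, and AKR1B1 did not. AKR1D1 and AKR1C3 were called higher in Huh7 LR and 0 AKR genes were called lower, against 4.43% (higher) and 1.78% (lower) of everything tested. At an adjusted p under 0.05, AKR1D1, AKR1C3 and AKR1B10 were higher and AKR1C1 was lower, against 23.3% and 22.4% of all tested. The libraries of the lines did not overlap for 4 higher genes, AKR7A3 being the fourth, and for 1 lower gene, AKR1C1, against 28.2% and 27.7% of all tested. AKR1A1, AKR1C2, AKR1C4 and AKR7A2 had overlapping libraries. The median log2 fold change of the 9 genes was 0.92, and that of all genes and loci tested was 0.0046. The median of the 9 is the value of AKR7A3, which missed 0.05 (edgeR adjusted p = 0.0549). AKR7A3 had low means, 0.267 CPM in Huh7 P and 0.507 CPM in Huh7 LR. The 4 members with the highest FPKM, AKR1A1, AKR7A2, AKR1D1 and AKR1C1, had log2 fold changes of 0.05, 0.14, 1.26 and -0.30. These are bulk measurements, in which fewer cells that express a gene and less RNA of it per cell cannot be told apart.

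**Figure D1:**
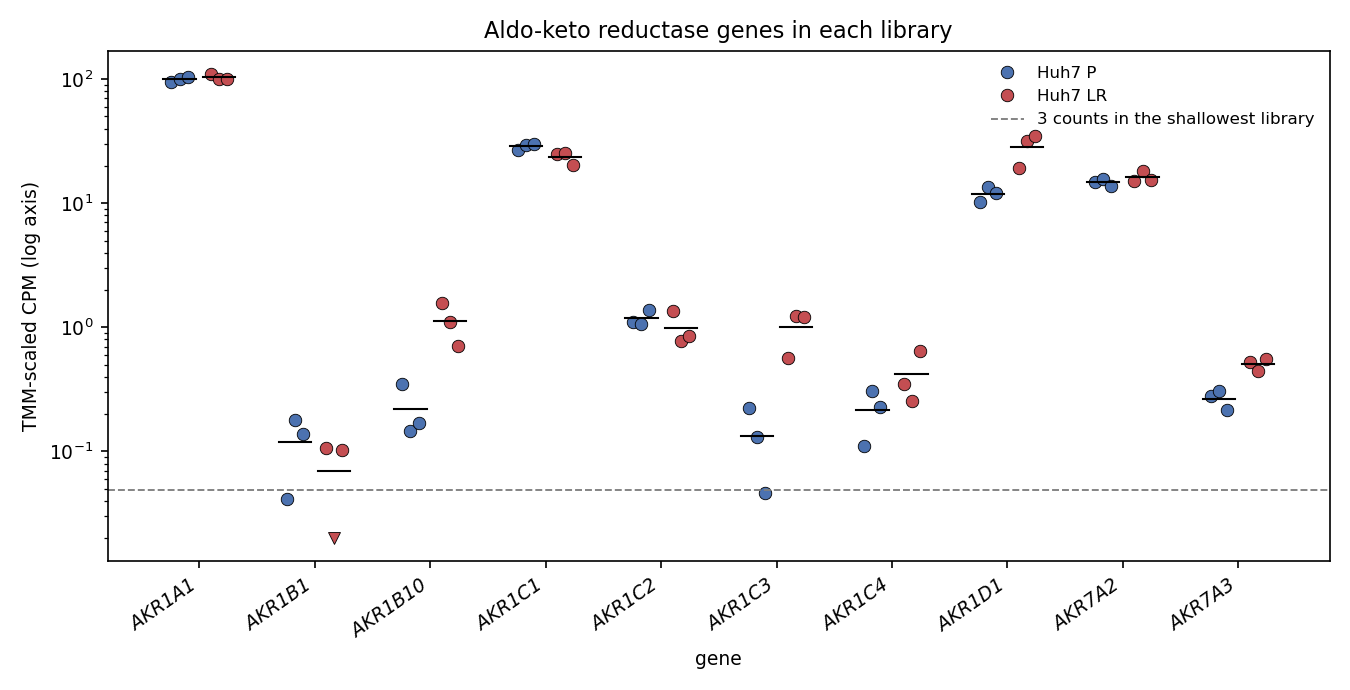
TMM-scaled CPM (log axis) of the 10 AKR genes in each library of Huh7 P (blue) and Huh7 LR (red), with bars at the mean of 3 libraries, a dashed line at 3 counts in the shallowest library and a triangle for a count of 0. AKR1D1, AKR1B10, AKR1C3 and AKR7A3 have all Huh7 LR libraries above all Huh7 P libraries, and AKR1C1 has them below.

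AKR1D1 (ENSG00000122787, chromosome 7, 138002324 to 138117986 on GRCh38) encodes the enzyme that reduces the double bond of the steroid ring on the way from cholesterol to bile acids and in the breakdown of steroid hormones. It had counts of 728, 832 and 786 (Huh7 P) against 1255, 2208 and 2361 (Huh7 LR). In CPM these were 10.1, 13.5 and 12.0 (Huh7 P) against 19.3, 31.5 and 34.6 (Huh7 LR). The lines did not overlap, all of Huh7 LR being higher, and Huh7 LR replicate 1 was the lowest of its line. The mean rose to 28.5 ± 8.12 CPM in Huh7 LR from 11.9 ± 1.67 CPM in Huh7 P (SD, n = 3 each). The log2 fold change was 1.26 (95% confidence interval 0.84 to 1.68, standard error 0.19, edgeR adjusted p = 0.000302). With each library left out in turn it lay between 1.10 and 1.48 with adjusted p under 0.05 in all 6 cases. The call at 0.001 was held without Huh7 LR replicate 1 (edgeR adjusted p = 3.76e-06) and was lost without any other library, where the adjusted p lay between 0.00101 and 0.00285. The upstream sequence of AKR1D1 is shown because the gene was called higher. It is the reference of RefSeq (GRCh38.p14) at chr7:138076209-138076431 on the plus strand, 5′ to 3′, and is the part of the 250 bases before the RefSeq start that no GENCODE exon covers.
AKR1D1: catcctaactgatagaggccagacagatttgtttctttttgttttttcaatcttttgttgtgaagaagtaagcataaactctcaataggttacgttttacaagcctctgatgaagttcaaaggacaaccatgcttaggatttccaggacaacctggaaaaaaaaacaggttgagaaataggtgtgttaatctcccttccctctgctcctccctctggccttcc
The start used by RefSeq lies inside the longer gene span that GENCODE gives.

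AKR1C1, AKR1C2, AKR1C3 and AKR1C4 are neighbours on chromosome 10, between 4963253 and 5218949. They encode hydroxysteroid dehydrogenases with different preferences. AKR1C1 inactivates progesterone, AKR1C2 inactivates dihydrotestosterone, AKR1C3 makes testosterone and prostaglandin F, and AKR1C4, the form most restricted to liver, acts in bile acid synthesis. Each of them has a coding sequence of 323 codons. Aligned over the coding sequence, AKR1C1 was 98.0% identical to AKR1C2, 91.4% to AKR1C3 and 88.8% to AKR1C4, and 63.4% to AKR1D1. Of the distinct runs of 50 bases in AKR1C1 transcripts, 28.3% also occur in AKR1C2, and of those in AKR1C2, 38.1% occur in AKR1C1. For AKR1C3 and AKR1C4, 4.53% and 8.46% of such runs occur in another gene. How reads that fit more than 1 gene were counted is not given in the sources used here, so counts of AKR1C1 and AKR1C2 in particular are uncertain.

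The upstream sequences of 3 of them are shown to let the near copies be compared with AKR1C3, which was called higher. Over the 250 bases before the RefSeq start, AKR1C1 and AKR1C2 were 96.5% identical, and AKR1C1 and AKR1C4 59.9%. AKR1C3 has 2 RefSeq starts, and AKR1C1 was 71.4% identical to it before the first and 69.2% before the second. Which start these cells use was not tested. The stretches below are those that no GENCODE exon covers, from RefSeq (GRCh38.p14), 5′ to 3′: chr10:4963165-4963252 on the plus strand for AKR1C1, chr10:5004024-5004107 on the minus strand for AKR1C2 and chr10:5048531-5048780 on the plus strand for AKR1C3 (the first of its 2 RefSeq starts).
AKR1C1: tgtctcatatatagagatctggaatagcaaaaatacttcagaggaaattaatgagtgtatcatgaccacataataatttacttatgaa
AKR1C2: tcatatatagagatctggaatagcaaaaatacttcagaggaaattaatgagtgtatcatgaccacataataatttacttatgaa
AKR1C3: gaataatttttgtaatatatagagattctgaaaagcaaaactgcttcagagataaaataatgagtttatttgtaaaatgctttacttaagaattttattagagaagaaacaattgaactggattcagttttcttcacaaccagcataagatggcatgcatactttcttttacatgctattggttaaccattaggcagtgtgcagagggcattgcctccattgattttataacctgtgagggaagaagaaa
The core of the antioxidant response element (TGAC, any 3 bases, GC) was searched on both strands of the 250 bases before each RefSeq start. It was found in 10.9% of all 35116 promoters of the table. Of the 10 AKR genes, 9 had promoters there, 12 in all. It was found in both windows of AKR7A2 and in none of the windows of AKR1A1, AKR1B1, AKR1C1, AKR1C2, AKR1C3, AKR1C4, AKR1D1 and AKR7A3. The 2 windows of AKR7A2 overlap almost wholly (chr1:19312147-19312396 and chr1:19312145-19312394). They hold the same 3 matches and are not separate finds. A match is a description of these letters and not of a bound site, and an absence covers these windows only. The windows of AKR1A1, AKR1C4 and AKR7A3 and the second of AKR1C3 lay wholly inside GENCODE exons of the same gene. Of the 250 bases, 162 (AKR1C1), 166 (AKR1C2) and 184 (first window of AKR1B1) lay in such exons. AKR1B10 had no promoter there and was not searched.

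AKR1C3 (ENSG00000196139) had counts of 16, 8 and 3 (Huh7 P) against 37, 87 and 82 (Huh7 LR). These were 0.223, 0.130 and 0.0459 CPM (Huh7 P) against 0.568, 1.24 and 1.20 CPM (Huh7 LR). All Huh7 LR libraries lay above all Huh7 P libraries, with Huh7 LR replicate 1 again the lowest of its line, and Huh7 P replicate 3 lay at the level of 3 counts. The log2 fold change was 2.89 (95% confidence interval 1.77 to 4.0, standard error 0.51, edgeR adjusted p = 0.000836). Leaving out 1 library at a time gave 2.48 to 3.50, with adjusted p under 0.05 in all 6 cases. As for AKR1D1, the call at 0.001 was held without Huh7 LR replicate 1 (edgeR adjusted p = 0.000292) and lost without any other library, where adjusted p reached 0.00552. The mean level was 7.56 times as high in Huh7 LR by CPM and 10.1 times as high by FPKM. Counts and FPKM together imply a transcript length of 1986 to 2138 bases in the Huh7 P libraries and 1448 to 1586 bases in the Huh7 LR libraries, so the fold depends on the scale.

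AKR1C1 (ENSG00000187134) had counts of 1940, 1834 and 1949 (Huh7 P) against 1619, 1772 and 1385 (Huh7 LR). In CPM these were 27.0, 29.7 and 29.8 (Huh7 P) against 24.8, 25.3 and 20.3 (Huh7 LR). The Huh7 LR libraries all lay below the Huh7 P libraries, and Huh7 LR replicate 3 was the lowest. The log2 fold change was -0.30 (95% confidence interval -0.51 to -0.08, standard error 0.10, edgeR adjusted p = 0.0281), far under 2-fold. Without Huh7 P replicate 2, Huh7 P replicate 3 or Huh7 LR replicate 3 the adjusted p was 0.114, 0.0873 and 0.127 by the same edgeR test, and the difference was lost. It was also lost by limma-trend on log2(FPKM + 0.1), where the log2 fold change was -0.25 (adjusted p = 0.116).

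AKR1C2 (ENSG00000151632) had 66 to 91 counts in Huh7 P and 54 to 89 in Huh7 LR, with a log2 fold change of -0.26 (95% confidence interval -0.86 to 0.34, edgeR adjusted p = 0.476). AKR1C4 (ENSG00000198610) had counts of 8, 19 and 15 (Huh7 P) against 23, 18 and 44 (Huh7 LR). Its libraries overlapped, since Huh7 LR replicate 2 lay below Huh7 P replicate 2 in CPM. The log2 fold change of AKR1C4 was 0.96 with a 95% confidence interval of -0.15 to 2.07 (edgeR adjusted p = 0.146), an interval wide enough to hold both no change and 4-fold.

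Because these paralogs can share reads, the 4 AKR1C genes were also summed. The summed CPM was 28.5, 31.2 and 31.5 (Huh7 P) against 27.1, 27.6 and 23.0 (Huh7 LR). Every Huh7 LR library lay below every Huh7 P library. The log2 ratio of the means was -0.23 (exact two-sided permutation test, p = 0.1, the smallest that 3 samples against 3 allow). On the FPKM scale the direction of the sum turned, with a mean of 4.62 ± 0.166 (SD, n = 3) in Huh7 P and 4.73 ± 0.443 (SD, n = 3) in Huh7 LR and a log2 ratio of 0.03 (exact two-sided permutation test, p = 0.9). AKR1C1 gave 94.9% ± 0.235 (SD, n = 3) of the summed CPM in Huh7 P and 90.5% ± 1.96 (SD, n = 3) in Huh7 LR. AKR1C3 gave 0.783%, 0.415% and 0.146% of the sum (Huh7 P) against 2.09%, 4.51% and 5.23% (Huh7 LR), with no overlap. The exact two-sided permutation test gave p = 0.1 for the share of AKR1C1 and for that of AKR1C3. On the FPKM scale the share of AKR1C3 was 1.44% in Huh7 P and 14% in Huh7 LR. When edgeR was fitted to the summed counts in place of the single genes, the log2 fold change was -0.23 (adjusted p = 0.0579). Counted alone, AKR1C3 and AKR1C4 went the other way, but AKR1C1 holds most of the summed counts, so this fit could not show their direction.

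**Figure D2:**
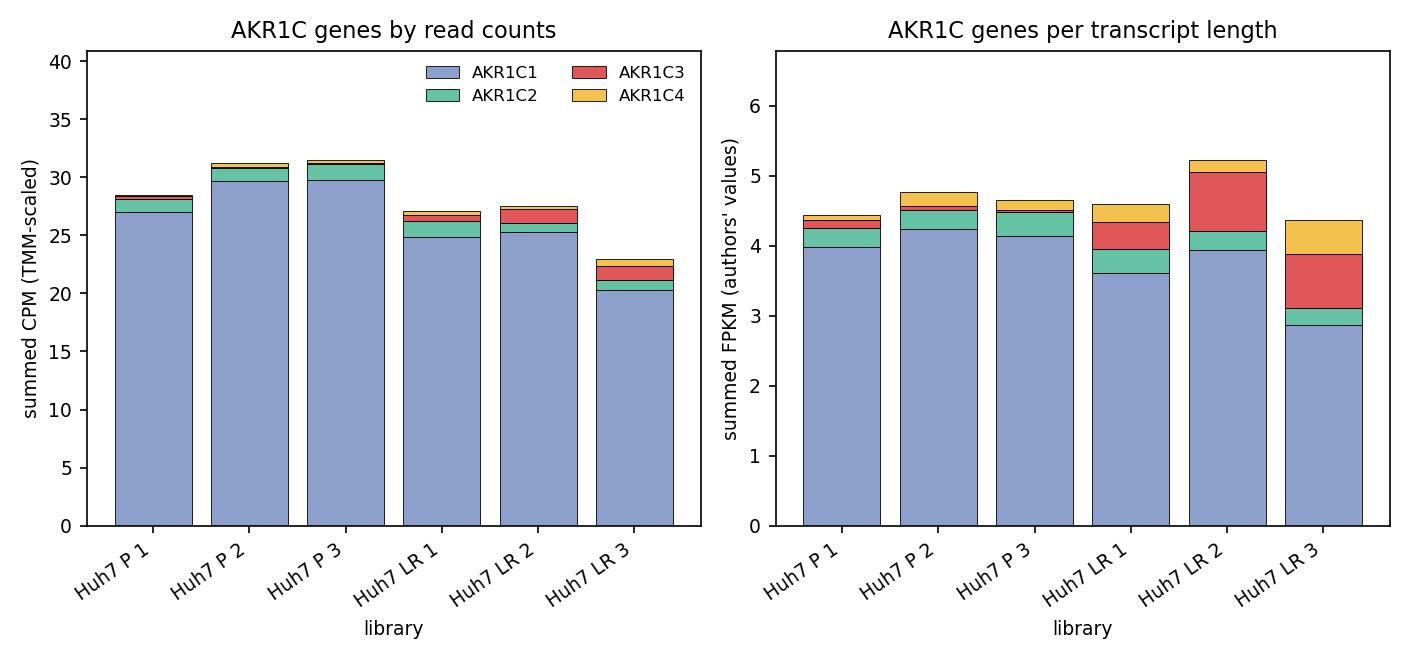
Stacked levels of AKR1C1, AKR1C2, AKR1C3 and AKR1C4 in each library, as TMM-scaled CPM (left) and as the authors' FPKM (right). AKR1C1 takes most of every bar, and the AKR1C3 segment is larger in all 3 Huh7 LR libraries than in any Huh7 P library on both scales, while the total is lower in Huh7 LR by CPM but not by FPKM.

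AKR1B10 (ENSG00000198074, chromosome 7, 134527592 to 134541408) encodes a reductase of retinal and of long-chain aldehydes that is often raised in liver cancers. It had counts of 25, 9 and 11 (Huh7 P) against 103, 78 and 48 (Huh7 LR). These were 0.348, 0.146 and 0.168 CPM (Huh7 P) against 1.58, 1.11 and 0.704 CPM (Huh7 LR). The groups did not overlap, and Huh7 LR replicate 1, the lowest of its line for AKR1D1 and AKR1C3, was the highest for AKR1B10. The log2 fold change was 2.33 (95% confidence interval 1.40 to 3.26, standard error 0.42, edgeR adjusted p = 0.00104), above 2-fold but just past the adjusted p of 0.001 that a call needs. Under DESeq2's Wald test the adjusted p was 2.31e-05 and AKR1B10 was called. It was also called by edgeR with no filter on low counts (AKR1B10 adjusted p = 0.000297) and with paralogs summed (AKR1B10 adjusted p = 0.000989). Over the alternatives the adjusted p lay between 2.31e-05 and 0.00864. Of the runs of 50 bases in AKR1B10 transcripts, 14.6% occur in another gene, 9.7% in AKR1B15 and 5.99% in AKR1B10P1, so counts of AKR1B10 are uncertain too. AKR1B15 had 2 counts in all.

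AKR1B1 (ENSG00000085662, chromosome 7, 134442350 to 134459284) encodes aldose reductase, which turns glucose into sorbitol. It had counts of 3, 11 and 9 (Huh7 P) against 7, 0 and 7 (Huh7 LR). These counts lie near the level that a count of 0 allows and overlap between the lines, and a difference was not detectable at this depth. The coding sequence of AKR1B1 was 76.1% identical to that of AKR1B10.

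AKR1A1 (ENSG00000117448, chromosome 1, 45550543 to 45570049) encodes a general aldehyde reductase. It had counts of 6812, 6231 and 6795 (Huh7 P) against 7172, 6960 and 6869 (Huh7 LR). Its CPM overlapped between the lines, with means of 99.9 ± 4.59 (SD, n = 3) and 103 ± 5.82 (SD, n = 3). The log2 fold change was 0.05, with a 95% confidence interval of -0.11 to 0.21 (edgeR adjusted p = 0.615). That interval holds no change as large as 2-fold in either direction.

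AKR7A2 and AKR7A3, neighbours on chromosome 1, encode aldehyde reductases known for succinic semialdehyde and for the dialdehyde of aflatoxin. Their coding sequences were 85.0% identical. Of the runs of 50 bases in AKR7A3 transcripts, 23.1% also occur in AKR7L, another gene beside them, so counts of AKR7A3 are uncertain. AKR7A2 (ENSG00000053371, 19303965 to 19312146) had 893 to 1072 counts in Huh7 P and 987 to 1267 in Huh7 LR, with a log2 fold change of 0.14 (95% confidence interval -0.09 to 0.36, edgeR adjusted p = 0.302). AKR7A3 (ENSG00000162482, 19282558 to 19289250) had counts of 20, 19 and 14 (Huh7 P) against 34, 31 and 38 (Huh7 LR). All Huh7 LR libraries lay above all Huh7 P libraries for AKR7A3. Its log2 fold change was 0.92 (95% confidence interval 0.13 to 1.71), but after adjustment the edgeR p of 0.0549 missed the threshold. Over the alternatives the adjusted p lay between 0.0243 and 0.192, the highest with AKR7A2, AKR7A3 and AKR7L summed, where the log2 fold change was 0.16 by edgeR. The promoter of AKR7A2 is shown as the only one that holds the antioxidant response letters, which are in capitals. It is chr1:19312147-19312325 on the minus strand (RefSeq, GRCh38.p14), the 179 bases before the first RefSeq start that no GENCODE exon covers. The other 71 bases of that window lie in exons of PQLC2, so the stretch lies between AKR7A2 and PQLC2. PQLC2 was higher in Huh7 LR, with a log2 fold change of 0.45 (edgeR adjusted p = 0.0198). A part of these letters in either gene was not tested.
AKR7A2: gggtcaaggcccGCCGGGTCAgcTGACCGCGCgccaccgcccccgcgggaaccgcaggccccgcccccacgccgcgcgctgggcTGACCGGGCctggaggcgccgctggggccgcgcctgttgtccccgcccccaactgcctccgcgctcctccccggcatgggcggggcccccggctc
The matches begin 167, 156 and 95 bases before the start, the first of them on the other strand.

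**Figure D3:**
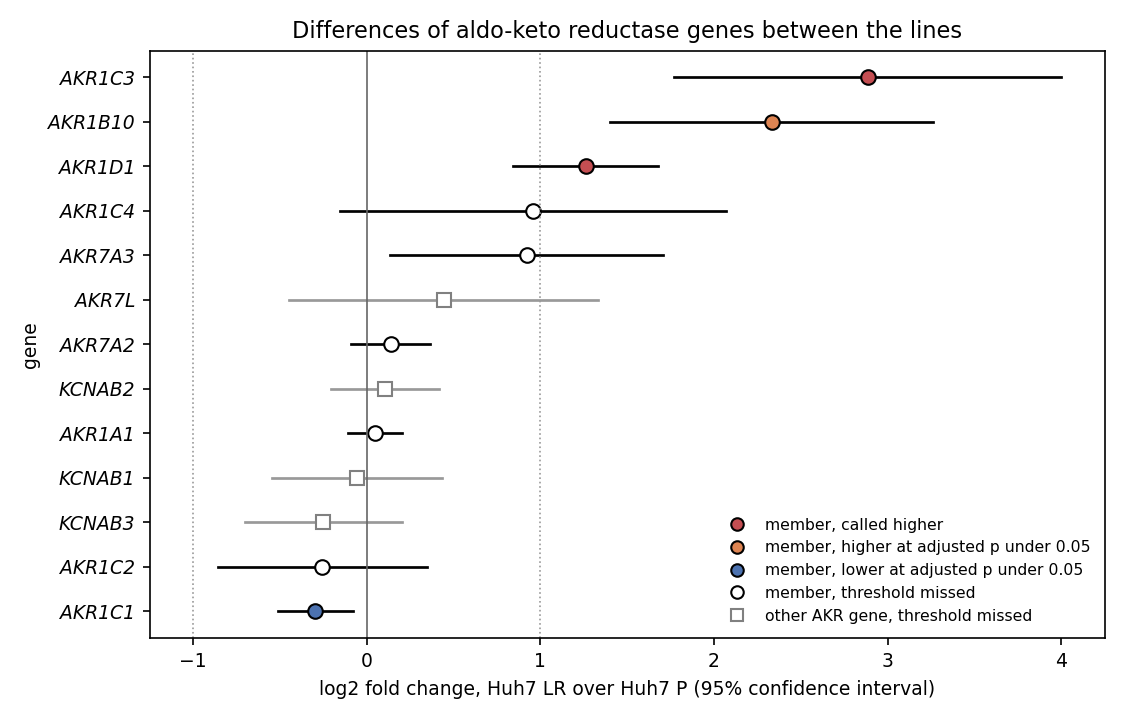
Log2 fold change of Huh7 LR over Huh7 P with 95% confidence intervals from edgeR for the 9 tested AKR genes (circles) and 4 other tested genes of the superfamily (squares), with dotted lines at 2-fold. Intervals of AKR1C3, AKR1B10, AKR1D1 and AKR7A3 lie above 0 and that of AKR1C1 below 0, before adjustment over all genes.

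Per length, AKR1A1 was the most abundant of the 10 in both lines, with 63.3 ± 4.29 FPKM (SD, n = 3) in Huh7 P and 67.7 ± 3.82 FPKM (SD, n = 3) in Huh7 LR. It gave 76.1% of the summed FPKM of the 10 genes in Huh7 P and 70.1% in Huh7 LR. In Huh7 P it was followed by AKR7A2 (10.2 FPKM), then by AKR1D1 (4.79 FPKM) and AKR1C1 (4.12 FPKM), whose libraries overlapped, and by AKR1C2 (0.296 FPKM). AKR7A3, AKR1C4, AKR1B10, AKR1C3 and AKR1B1 stood between 0.142 and 0.0558 FPKM in Huh7 P, and each overlapped its next neighbour in that order. In Huh7 LR, AKR1D1 (12.0 FPKM) and AKR7A2 (11.2 FPKM) came after AKR1A1 and overlapped each other, followed by AKR1C1 (3.47 FPKM). AKR1C3 and AKR1B10 had 0.664 FPKM each in Huh7 LR, and AKR1C4, AKR1C2 and AKR7A3 had 0.305, 0.286 and 0.273 FPKM, with overlap between neighbours. AKR1B1 was last with 0.0377 FPKM.

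The superfamily has 7 other human genes in the table. AKR7L, KCNAB1, KCNAB2 and KCNAB3, the last 3 of which encode beta subunits of potassium channels, had enough counts to test. Their log2 fold changes were 0.44, -0.06, 0.10 and -0.25, with edgeR adjusted p between 0.348 and 0.856. AKR1E2 and AKR1C8P had no count in any library, and AKR1B15 had 2 counts in Huh7 LR replicate 2 alone.

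Bile acid synthesis was represented by 14 genes around AKR1D1 and AKR1C4, of which 11 were tested. SLC27A2, which activates bile acid precursors and very long fatty acids, was called higher with a log2 fold change of 1.19 (edgeR adjusted p = 3.73e-06). AMACR (0.80), ACOX2 (0.56) and CYP8B1 (2.07), which act in the shortening of the side chain or the hydroxylation of the ring, were also higher at an adjusted p under 0.05. HSD17B4 (-0.23) and SCP2 (-0.21), both enzymes of peroxisomes, were lower, but missed 0.05 in 3 and 4 of 16 alternatives. The other 5 did not pass the test, and the median log2 fold change of the 11 was 0.44. CYP8B1 had counts of 4, 6 and 2 (Huh7 P) against 20, 14 and 19 (Huh7 LR), and its adjusted p was above 0.05 without 4 of the 6 libraries (highest 0.0575 by edgeR, without Huh7 P replicate 3). CYP7A1, the rate-limiting enzyme of the pathway, was named after its values were seen and had 0 counts in each Huh7 P library and 4, 2 and 13 counts in Huh7 LR, too few to test.

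In steroid hormone metabolism, 8 of 22 tested genes were higher, 3 were lower and the median log2 fold change was 0.15. The 4 called higher were UGT2B17 and UGT2B15, which attach glucuronic acid to androgens, HSD3B1, which makes ketosteroids that AKR1D1 and AKR1C enzymes use, and HSD17B2, which oxidises testosterone and estradiol. UGT2B17 had counts of 8, 0 and 0 (Huh7 P) against 73, 130 and 139 (Huh7 LR). UGT2B15, a close paralog of it, had a log2 fold change of 3.46, HSD3B1 one of 3.43 and HSD17B2 one of 1.62 (edgeR adjusted p = 2.65e-06, 6.11e-05 and 1.16e-06). HSD17B2 rose to 99.3 ± 14.9 CPM in Huh7 LR from 32.3 ± 1.75 CPM in Huh7 P (SD, n = 3 each). HSD17B10 (-0.50), SULT1E1 (-0.32) and SRD5A1 (-0.27) were lower, the last 2 missing 0.05 in 5 and 7 of 16 alternatives. HSD3B2, named after its values were seen, had no count in Huh7 P and 14, 15 and 16 counts in Huh7 LR, which is at least 4.87-fold higher against 3 counts per library.

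Other carbonyl reducing enzymes, outside the AKR family, were higher in 10 and lower in 4 of 21 tested genes, with a median log2 fold change of 0.27. ADH4, an alcohol dehydrogenase of liver, and HSD17B14 were called higher, with log2 fold changes of 1.66 and 1.25 (edgeR adjusted p = 0.00026 and 2.34e-06). The call of ADH4 was not held in every case with 1 library left out (highest edgeR adjusted p = 0.00202). DHRS2 had a log2 fold change of 3.02 (edgeR adjusted p = 0.00105) from 2, 4 and 5 counts to 27, 46 and 22 counts. The lower genes were NQO1 (-0.74), PTGR3 (-0.46), NQO2 (-0.35) and PTGR2 (-0.28). NQO2 missed 0.05 in 3 and PTGR2 in 10 of 16 alternatives. Among enzymes of aldehyde oxidation, 2 of 17 tested were higher and 5 lower, with a median of -0.09. ALDH1A2, which makes retinoic acid from retinal, was called higher (log2 fold change 3.69, edgeR adjusted p = 1.07e-06), and ALDH5A1, which oxidises the substrate that AKR7A2 reduces, had a log2 fold change of 0.75. ALDH1L2 was called lower at -2.15 (edgeR adjusted p = 5.56e-06), and ALDH16A1 (-0.69), ALDH1A1 (-0.49), ALDH18A1 (-0.31) and ALDH1B1 (-0.21) were lower, ALDH1B1 missing 0.05 in 3 of 16 alternatives.

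Around aldose reductase, 10 genes of the polyol pathway and fructose were tested, with a median log2 fold change of 0.14. SLC6A12, a carrier of the osmolyte betaine, and SLC2A2, the glucose and fructose carrier of hepatocytes, were called higher with log2 fold changes of 1.72 and 1.20, and KHK (0.36) also rose. In prostaglandin metabolism, around the synthase activity of AKR1C3, 2 of 8 tested genes were higher and 4 lower, with a median of -0.25. SLCO2A1, a prostaglandin carrier, was called higher (1.77, edgeR adjusted p = 5.17e-05). PTGS1 (-0.91), PTGIS (-0.67), PTGES2 (-0.58) and PTGES3 (-0.48) were lower. TBXAS1 had a log2 fold change of 1.31 (edgeR adjusted p = 0.0389), which passed 0.05 in 4 of 13 alternatives. Of 16 tested genes of retinoid metabolism, 7 were higher and 2 lower, with a median of 0.44. CYP26B1, which breaks down retinoic acid, was called lower at -2.54 (edgeR adjusted p = 7.27e-08), RDH13 was lower at -0.29 (past 0.05 in 12 of 16 alternatives), and RDH5, a retinol dehydrogenase, had the largest rise of the list at 0.88.

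**Figure D4:**
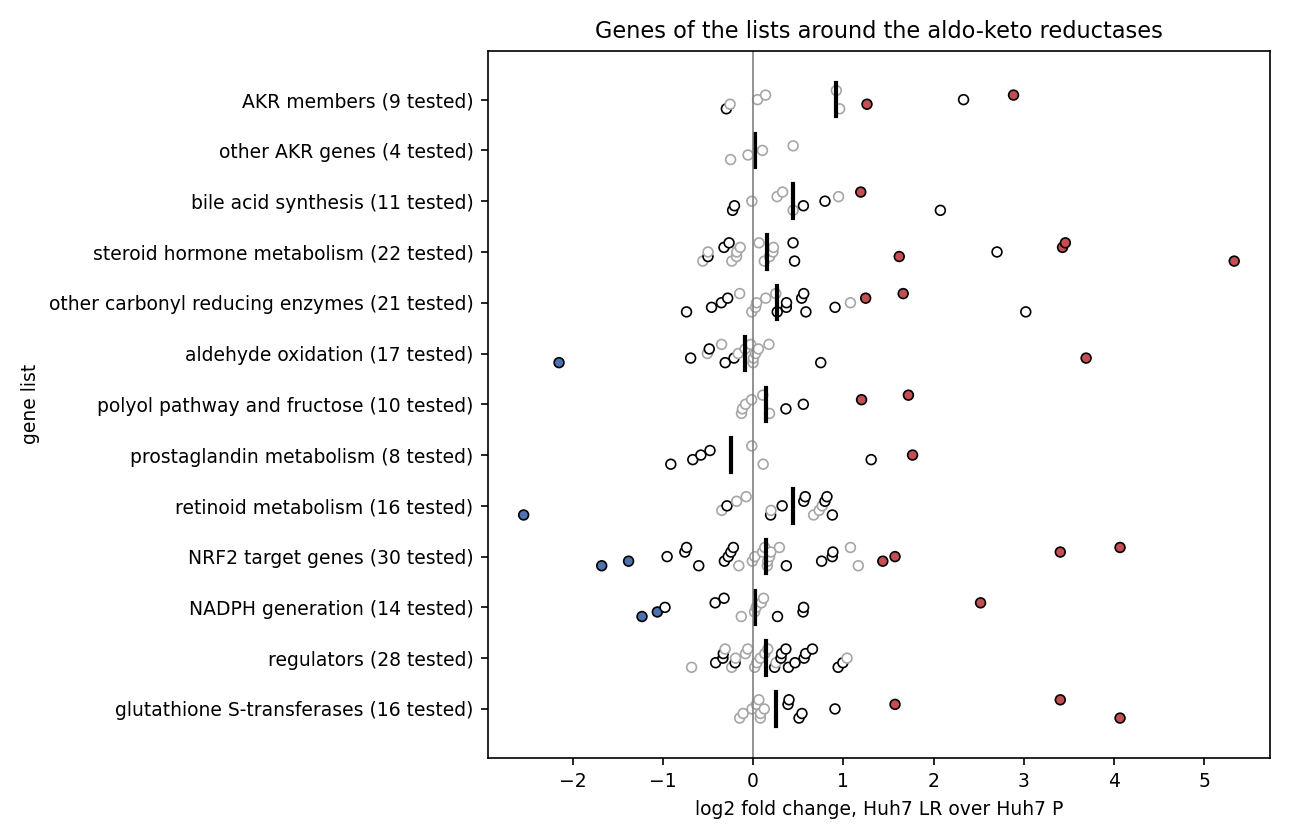
Log2 fold change of Huh7 LR over Huh7 P for the tested genes of each list, with a black bar at the median, red and blue fills for genes called higher and lower, and dark outlines for an adjusted p under 0.05. HSD3B2 is left out because it had no count in Huh7 P, and the median of the AKR genes stands at 0.92, the value of AKR7A3.

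NRF2 target genes other than AKR genes went in both directions, with 8 of 30 tested higher, 10 lower and a median log2 fold change of 0.14. GSTA1, GSTA2, GSTM3 and HMOX1 were called higher, with log2 fold changes of 4.07, 3.40, 1.57 and 1.44. ABCC1 and SLC7A11 were called lower, at -1.68 and -1.38. The call of SLC7A11 was not held in every case with 1 library left out (highest edgeR adjusted p = 0.00602). NFE2L2, which encodes NRF2 itself, was lower at -0.42 (edgeR adjusted p = 0.00146). Among the glutathione S-transferases, another family of detoxifying enzymes, 8 of 16 tested genes were higher and 0 lower by edgeR (adjusted p under 0.05), with a median of 0.25. GSTA1, GSTA2 and GSTM3 were the 3 called, and MGST3 had a log2 fold change of 0.91. In the supply of NADPH, the cofactor of AKR enzymes, 4 of 14 tested genes were higher, with a median of 0.02 over the 14. MTHFD1 was called lower at -1.06 (edgeR adjusted p = 2.08e-06), and MTHFD2 (-0.98), TKT (-0.42) and TALDO1 (-0.32) were lower. ME3 was called higher at 2.52, from 9, 19 and 8 counts to 92, 49 and 73 counts. Its edgeR adjusted p reached 0.00549 with 1 library left out, so the call was not held in every case. IDH2 (0.56), NADK2 (0.55) and PGLS (0.27) were higher, PGLS missing 0.05 in 3 of 16 alternatives. Of 28 tested regulators, 11 were higher, 4 lower and 0 called in either direction by edgeR's test, with a median of 0.15. Among those past 0.05, JUN had the largest log2 fold change, at 0.99 (edgeR adjusted p = 1.26e-05). NFE2L2, NR1I2 (-0.34), which encodes the drug sensor PXR, CUL3 (-0.33) and FOXA3 (-0.20) were the lower ones. FOXA3 missed 0.05 in 11, NR1I2 in 6 and CUL3 in 1 of 16 alternatives.

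Genes beside the AKR genes were read from the same fit for starts within 500 kb. Beside AKR1D1, TRIM24 and CREB3L2 were tested and had log2 fold changes of -0.18 and -0.06, with adjusted p of 0.0552 and 0.609 by edgeR. Beside AKR1C3, NET1 and TUBAL3 were tested, at -0.19 and -0.39 (edgeR adjusted p = 0.0472 and 0.111), and NET1 missed 0.05 in 13 of 16 alternatives. Of 5 tested neighbours of AKR1B10, SLC35B4 was higher at 0.58 and AGBL3 lower at -0.94, and CALD1, BPGM and LRGUK did not pass the test. Of 14 tested neighbours of AKR1A1, 3 were higher, 5 were lower and 0 were called. Of 12 tested beside AKR7A2 and AKR7A3, 3 were higher and 3 lower, and NBL1 was called lower at -1.24 (edgeR adjusted p = 3.82e-05). No exon of the 10 AKR genes overlaps an exon of another listed gene on either strand in GENCODE.

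For the 2 called genes, the annotated genes with the most similar pattern over the 6 libraries were found by the root mean square difference of log2(CPM + 0.5), each gene centred on its own mean. AKR1C3 was closest to PAX5 (0.0894), SLC22A5 (0.110) and HMOX1 (0.129). Their log2 fold changes by edgeR were 2.26, 1.32 and 1.44, against 2.89 for AKR1C3. The mean of AKR1C3 in Huh7 P, 0.133 CPM, lies below the 0.5 added, which shrinks its change in this measure. AKR1D1 was closest to HIST1H2BD (0.137), OAT (0.138) and MATN2 (0.144). OAT, which encodes ornithine aminotransferase, rose from 108 to 253 CPM.

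Markers of hepatocytes were present in every library. All 7 hepatocyte markers had counts, with AFP the most abundant by mean FPKM in Huh7 P and ALB in Huh7 LR, and their summed level was 39191, 44727 and 48972 CPM (Huh7 P) against 51276, 51200 and 53202 CPM (Huh7 LR). ALB, APOA1, TTR and TF were higher in Huh7 LR, with log2 fold changes of 0.74, 0.48, 0.68 and 0.48 (TF missed 0.05 in 3 of 16 alternatives), and 0 hepatocyte markers were lower by edgeR's test. Of 4 markers of cholangiocytes or progenitors, all had counts, EPCAM was the most abundant by mean FPKM in both lines and the sum was 415 to 428 CPM in Huh7 P and 416 to 426 CPM in Huh7 LR, while EPCAM was higher at 0.30 and KRT19 was called lower at -2.07. Of 5 fibroblast markers, DCN was at 0 in all libraries, COL1A1 was the most abundant (called higher at 1.84) and the sum was 1.31 to 1.48 CPM in Huh7 P and 3.65 to 6.46 CPM in Huh7 LR. The call of COL1A1 was not held in every case with 1 library left out (highest edgeR adjusted p = 0.00105). Of 5 leukocyte markers, HLA-DRA was at 0, and LYZ in Huh7 P and CD68 in Huh7 LR were the most abundant by mean FPKM. Their sum was 130 to 140 CPM in Huh7 P and 55.8 to 62.9 CPM in Huh7 LR, where LYZ was called lower at -2.79 and CD68 was lower at -0.55. Of 4 endothelial markers, CDH5 and KDR were at 0, PECAM1 was the most abundant and the sum was 38.8 to 47.5 CPM in Huh7 P and 65.0 to 71.2 CPM in Huh7 LR, with PECAM1 (0.64) and VWF (2.95) higher. VWF had counts of 0, 0 and 8 (Huh7 P) against 19, 26 and 21 (Huh7 LR) and missed 0.05 in 5 of 13 alternatives. Its log2 fold change lay between 2.34 and 7.45 with 1 library left out. The part of these markers in the differences of the AKR genes was not tested.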

How the data were processed

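RNA sequencing of 3 Huh7 P and 3 Huh7 LR samples was read from the table the authors deposited, which gives for each gene a read count and an FPKM value per sample. The count values are whole numbers of fragments or reads per gene as deposited by the authors, and how they were counted, the strand and the annotation are not given in the sources used here. The FPKM values were deposited by the authors and divide counts by transcript length and library size. The submitters' notes name TopHat2, Cufflinks, DESeq and the mouse build mm10 without roles or versions, and the labels describe extraction from honeybee larvae, while the identifiers are human, and 19974 of 19974 were found in GENCODE 29. Besides these, 6210 loci have no gene identifier, and 34 text lines were left out.

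Counts were fitted in edgeR 4.0.16 (R 4.3.3) with TMM factors (0.977 to 1.03), filterByExpr (minimum count 10, minimum total 15) and the quasi-likelihood test. Benjamini-Hochberg adjustment ran over 17531 genes and loci, and the biological coefficient of variation was 12.7%. The fits were tested on simulated data. Calls needed an adjusted p under 0.001 and more than 2-fold, and single genes 0.05. Sums over the AKR1C genes and their shares were compared by an exact permutation test (two-sided, smallest p 0.1). Alternatives were DESeq2 1.42.0 size factors and Wald test, no filter, at least 10 counts in every library, limma 3.58.1 trend on log2(FPKM + 0.1) or log2(FPKM + 1), leaving out each library, the replicate number as a block, annotated genes only, summed paralogs and other thresholds. Besides the members, the text names called list genes and those with the largest or smallest change, up to 4 a list, and completes counts of 5 or fewer. Some list genes are not reported here. The members and lists were chosen with earlier results of these data known. The protein identity that was planned was replaced by coding-sequence identity, as no protein table was used here. Promoters are those of RefSeq (GRCh38.p14), in which 9 of 10 members were matched (not AKR1B10), and printed stretches are limited to bases outside GENCODE exons. Python 3.11.15, pandas 2.3.3, SciPy 1.17.1, Biopython 1.88 and matplotlib 3.10.9 were used.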

Additional observations from a re-analysis of the deposited data

How the results depend on the processing

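Directions of AKR1A1, AKR1B10, AKR1C1, AKR1C2, AKR1D1, AKR7A2 and AKR7A3 held under every alternative that could be fitted. AKR1B10, AKR1C3 and AKR1C4 could not be tested with at least 10 counts in every library, nor these 3, AKR1C2 and AKR7A3 under the FPKM filter. Genes and loci called higher/lower numbered 268/84 by limma-trend on log2(FPKM + 1), 353/120 by limma-trend on log2(FPKM + 0.1) with no filter, 1346/513 at adjusted p under 0.05 and above 2-fold, 1652/1445 with no fold minimum, and 551 to 734/224 to 341 with a library left out. AKR genes called higher were 1 with at least 10 counts in every library, 1 by each of the filtered limma fits (1 and 1), 0 by the limma fit with no filter, and 0 to 2 with a library left out. AKR genes that differed were 1 and 1 higher by the filtered limma fits, and 0 lower by all 3 limma fits and with paralogs summed. With a library left out they were 3 higher and 0 to 1 lower. AKR1C1 was -0.25 and -0.20 by limma (+ 0.1, + 1), -0.25 with no filter, and -0.35 to -0.20 with a library left out. With paralogs summed AKR1C1, AKR1C3 and AKR1C4 all take -0.23, the value of the sum, in which AKR1C1 holds most counts. AKR7A3 passed 0.05 at 0.94 (at least 10 counts), 0.63 (limma, no filter) and 0.93 (annotated genes only). With a library left out AKR7L lay at -0.015 to 0.69, KCNAB1 at -0.24 to 0.11 and KCNAB2 at -0.030 to 0.21, and KCNAB1 also took 0.05 without Huh7 P replicate 1. By FPKM the AKR1C sum had a log2 ratio of 0.033, and shares moved by -16.0 (AKR1C1), 12.6 (AKR1C3) and 3.72 (AKR1C4) percentage points. Apart from the sums the cause was not tested. Of 1344 values of other single genes, 1244 were the same, 96 weaker, 0 stronger and 4 reversed. Under a replicate block 783 genes and loci were called higher and 316 lower, and the 2 AKR genes called were AKR1D1 and AKR1B10 (edgeR adjusted p of AKR1B10 0.000246, of AKR1C3 0.00127). Each library correlated best with its own number in the other line (r 0.029, 0.0314 and 0.0317), all under 0.1.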
